A study of Homo sapiens with 34 samples.

Results

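The 4 libraries described here trace the last interval of a cardiac differentiation of H1 cells, an established human embryonic stem cell line, from day 6 to day 10 in the WT line. They were chosen as the WT columns of the read count table whose rows follow the gene identifiers, namely replicates 1 and 2 of day 6 and replicates 3 and 4 of day 10, out of 34 libraries in all. Each gene is 1 row of the table, the RefSeq row with the largest total where a symbol has several. After a filter on low counts, 17215 genes were tested for a difference between the days.

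By this stage of such a culture, progenitors that already express the first contractile proteins assemble sarcomeres, the repeating units of thick filaments (myosin), thin filaments (actin, tropomyosin and troponin) and Z-discs (the anchors of the thin filaments), and begin to beat. Beating needs an action potential, carried by sodium, calcium and potassium channels, and a calcium release from the sarcoplasmic reticulum that the action potential triggers. Young cardiomyocytes leave the cell cycle gradually, and they burn glucose before they turn to fatty acids.

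The WT cells carry no knockdown of a gene of the study. By the study's methods they are H1 cells infected with a lentiviral vector that either expressed an shRNA against GFP or was empty, and the labels do not say which of these a library came from. All cells, WT or not, received the GSK3 inhibitor CHIR99021 for the first 24 hours and the WNT inhibitor IWP2 from day 2 to day 5. Insulin was added at day 7, so that day 10 cells had been in insulin and day 6 cells had not, and its part cannot be told apart from that of time. The 2 days share no replicate number, and a difference in preparation between replicates 1 and 2 and replicates 3 and 4 cannot be told apart from that of the day either. The comparison lines, used only to ask where the WT change differed, carried an shRNA against NKX2-5, a homeobox factor of the heart, or against ZEB2, a zinc finger repressor, with 2 libraries a day each. The study describes its libraries as biological replicates. The labels do not say whether these are separate cultures, so p-values here measure the spread between these libraries, which may be partly technical.

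The day 6 libraries held 24174327 and 42821020 reads over the genes, and the day 10 libraries held 20877183 and 9189588. A count of 3 corresponds to 0.124 and 0.0701 CPM (each gene's reads relative to the library total) at day 6 and to 0.144 and 0.326 CPM at day 10 without scaling. The 10 most counted genes took 9.20% and 8.03% of the reads at day 6 and 15.9% and 15.1% at day 10. Levels below are CPM scaled by edgeR's TMM factors, which correct for such a shift in make-up. A level is given as replicate 1 then 2 for day 6 and as replicate 3 then 4 for day 10. Fold changes are log2, day 10 minus day 6, and each adjusted p is Benjamini-Hochberg over all genes tested. The standard error (SE) is derived, as the absolute log2 fold change over the square root of the F statistic of edgeR's quasi-likelihood test. Defining cardiomyocyte markers were present on both days: MYH6, an atrial-type myosin heavy chain, stood at 4645 and 3903 CPM at day 6, and MYL7, an atrial-type light chain, at 3117 and 2255 CPM. MYL2, the ventricular regulatory light chain, had no reads at day 6 and was at 0.417 and 0 CPM at day 10, too few to test.

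Part of the change is visible in the hairpins of microRNAs, short RNAs that recognise messages by their seed, bases 2 to 8. The miR-302 and miR-367 cluster is a hallmark of pluripotent cells, and miR-499a is read from an intron of the myosin gene MYH7B. Mature sequences (RefSeq, GRCh38.p14) are shown for the cluster and for miR-499a because their hairpins or hosts moved in opposite directions, with the seed in capitals. They lie on chromosome 4, minus strand, at chr4:112648186-112648208 for miR-302a-3p, chr4:112648489-112648511 for miR-302b-3p, chr4:112648366-112648388 for miR-302c-3p, chr4:112648006-112648028 for miR-302d-3p and chr4:112647877-112647898 for miR-367-3p, and on the plus strand at chr20:34990408-34990428 for miR-499a-5p.
hsa-miR-302a-3p: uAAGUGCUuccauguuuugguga
hsa-miR-302b-3p: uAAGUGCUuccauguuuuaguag
hsa-miR-302c-3p: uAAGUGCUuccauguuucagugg
hsa-miR-302d-3p: uAAGUGCUuccauguuugagugu
hsa-miR-367-3p: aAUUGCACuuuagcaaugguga
hsa-miR-499a-5p: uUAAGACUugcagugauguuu
The 4 miR-302 members share 1 seed, AAGUGCU, while miR-367 has AUUGCAC and miR-499a has UAAGACU.

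These libraries were made from total RNA for long transcripts, so a hairpin row counts fragments that overlap the hairpin and not the mature microRNA. The 5 hairpin rows of the cluster, chosen after their values were seen, summed to 737 and 787 reads at day 0, 1349 and 626 at day 2, 46 and 200 at day 6, and 0 and 2 at day 10. These are raw sums from libraries of unequal depth. Normalized totals were 38341144 and 39052851 at day 0 and 30979000 and 16055398 at day 2, so days 0 and 2 are not compared here. Every day 6 sum was below those of both earlier days, and the day 10 libraries, nearly without reads, were below both day 6 libraries. Against the limit of 3 counts a library, MIR302C fell at least 5.78-fold (adjusted p = 0.000683) and MIR302A at least 2.26-fold (adjusted p = 0.00172). In the annotation of GRCh37, MIR302A, MIR302C, MIR302D and MIR367 lie inside LARP7 on the opposite strand, and the source does not state whether strand was used in counting. LARP7 itself, chosen likewise, was at 97.3 and 106 CPM at day 6 and at 80.8 and 69.6 CPM at day 10 (log2 fold change -0.43, SE 0.11, adjusted p = 0.00659). MIR17HG, the host of the growth-linked miR-17 cluster and also chosen after its values were seen, fell from 65.5 and 64.2 CPM to 30.5 and 21.0 CPM (log2 fold change -1.31, SE 0.15, adjusted p = 5.96e-05). The MIR499A row had no reads before day 10 and 1 and 3 reads there, too few to test.

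Promoters (RefSeq, GRCh38.p14, 300 bases around the start) of genes that moved together are printed for CCNB2 and CDK1, which drive entry into mitosis, and for HSPB7 and MYPN, which act at the thin filament and the Z-disc. Capitals mark CCAAT boxes (CCAAT) and CHR elements (TTTGAA or TTCGAA) in the first pair. In the second pair they mark, for HSPB7, a MEF2 box and an MCAT word (CATTCC) and, for MYPN, E-boxes (CANNTG) and MCAT words. Both strands were searched.
CCNB2 (chr15:59104896-59105195, plus strand): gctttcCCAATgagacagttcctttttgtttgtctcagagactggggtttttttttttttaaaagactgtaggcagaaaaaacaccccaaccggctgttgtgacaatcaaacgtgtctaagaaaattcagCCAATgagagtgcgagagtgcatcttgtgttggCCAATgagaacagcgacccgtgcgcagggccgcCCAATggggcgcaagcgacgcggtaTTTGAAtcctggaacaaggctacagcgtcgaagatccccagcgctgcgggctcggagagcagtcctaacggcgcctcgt
CDK1 (chr10:60778081-60778380, plus strand): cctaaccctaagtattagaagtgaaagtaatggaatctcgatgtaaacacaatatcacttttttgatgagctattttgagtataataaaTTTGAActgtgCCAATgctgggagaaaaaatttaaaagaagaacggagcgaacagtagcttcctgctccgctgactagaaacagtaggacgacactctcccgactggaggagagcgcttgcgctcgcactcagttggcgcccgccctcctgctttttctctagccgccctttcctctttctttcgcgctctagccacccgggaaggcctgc
HSPB7 (chr1:16017994-16018293, minus strand): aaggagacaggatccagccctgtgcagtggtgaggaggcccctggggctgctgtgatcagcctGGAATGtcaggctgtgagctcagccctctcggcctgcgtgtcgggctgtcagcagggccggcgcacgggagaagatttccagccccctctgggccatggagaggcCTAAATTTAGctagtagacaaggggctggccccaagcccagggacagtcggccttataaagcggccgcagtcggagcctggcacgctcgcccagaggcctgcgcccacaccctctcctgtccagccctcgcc
MYPN (chr10:68109238-68109537, plus strand): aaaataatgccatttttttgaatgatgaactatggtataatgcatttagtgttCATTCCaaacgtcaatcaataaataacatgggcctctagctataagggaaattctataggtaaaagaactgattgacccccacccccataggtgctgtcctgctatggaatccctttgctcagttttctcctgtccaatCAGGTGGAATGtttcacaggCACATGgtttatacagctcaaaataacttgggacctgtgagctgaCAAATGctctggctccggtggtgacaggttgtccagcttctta
CCNB2 holds 4 CCAAT boxes and 1 CHR element, CDK1 holds 1 of each, HSPB7 holds 1 MEF2 box and 1 MCAT word, and MYPN holds 3 E-boxes and 2 MCAT words, where 1 E-box and 1 MCAT word overlap.

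Of the 25 mitosis genes, 20 had a promoter in the table, and 13 of those (65.0%) held both a CCAAT box and a CHR element, against 6.58% of all 27305 promoters and 5.01% of those of genes tested. Of 19 DNA replication promoters, 13 (68.4%) held a CCAAT box, against 35.7% of all promoters, and 2 (10.5%) held a CHR element, against 16.6% of all promoters and 11.8% of those of genes tested. Among 45 promoters of the thick filament, thin filament and Z-disc lists, 10 (22.2%) held a MEF2 box, against 3.09% of all promoters, and 6 (13.3%) a CArG box, against 1.28%. The MEF2 box was in the promoters of FHL2, HSPB7, MYBPC3, MYOM3, MYOZ1, MYOZ2, TTN and XIRP1, which rose (XIRP1 with no call in 1 fit of all libraries, at 0.51), and in those of SMPX (0.42, adjusted p = 0.0868) and SYNPO2L (0.32, adjusted p = 0.29), which did not pass the test. The CArG box was in the promoters of FHL2, LDB3 and MYOM1, which rose, of ACTC1, which fell, and of ACTA1 and MYL7, which did not pass the test. Holders not described elsewhere are named because they hold the word, after their values were seen. The letters are a description of the windows, and no binding was measured.

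Across all genes, 470 rose and 208 fell by at least 8-fold at a false discovery rate (FDR) of 1%, which are 2.73% and 1.21% of those tested. At 5% FDR and any fold, 4866 rose (28.3%) and 5031 fell (29.2%). The median log2 fold change over all genes was -0.009. The libraries of the days did not overlap in 76.3% of genes, 37.5% higher and 38.7% lower at day 10. Any list below has to be read against these shares, since most genes tested moved. Of the 678 genes called at 8-fold and 1% FDR, 247 had at least 10 CPM on the higher day and no overlap between the days. In the plot of change against level, TTN and MYH6 lie at the top of the range of levels with small changes.

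**Figure D1:**
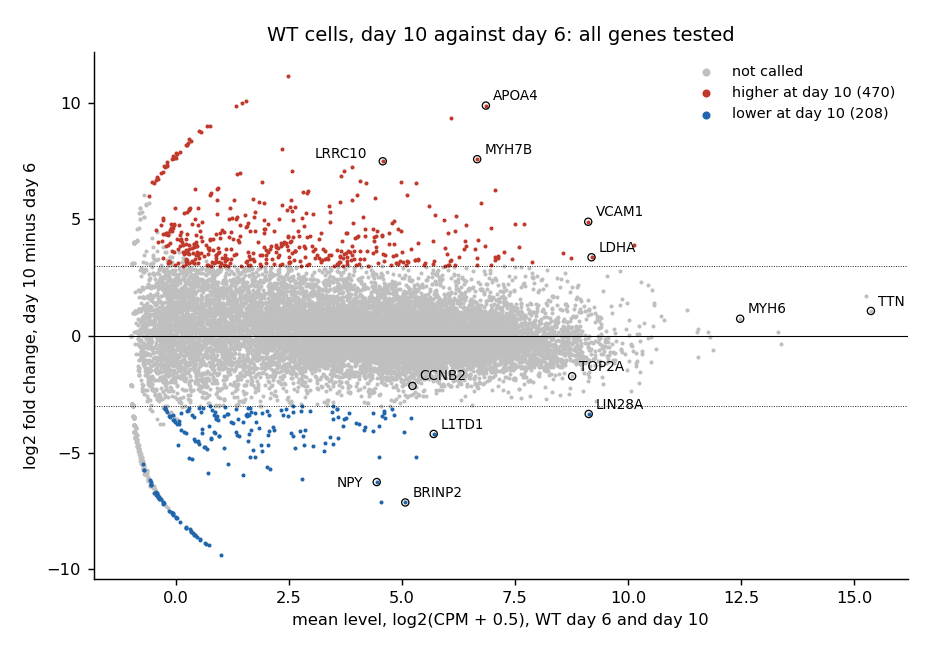
Each point is 1 of 17215 genes in WT cells. The x axis is the mean of the day 6 and day 10 levels as log2(CPM + 0.5), the y axis is the log2 fold change, dotted lines mark 8-fold, and red and blue points are the 470 genes called higher and the 208 called lower at day 10. Circles mark named genes, among them MYH7B at 7.58, VCAM1 at 4.90 and BRINP2 at -7.13, and the arcs at low levels are genes with almost no reads on 1 of the days.

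Of the 12 largest rises among called genes with at least 10 CPM and no overlap between the days, 4 belong to striated muscle. MYH7B (GRCh37 chr20:33543613-33590240), a myosin heavy chain, was at 1.00 and 1.07 CPM at day 6 and at 203 and 198 CPM at day 10. Replicates lay close together on both days and far from the other day (log2 fold change 7.58, SE 0.17, adjusted p = 1.39e-08). LRRC10, a leucine-rich repeat protein of cardiomyocytes, went from 0.436 and 0.143 CPM to 45.9 and 46.9 CPM (log2 fold change 7.49, SE 0.38, adjusted p = 2.93e-06). MLIP, which binds lamins in muscle, went from 0.305 and 0.143 CPM to 25.6 and 22.2 CPM (log2 fold change 6.84, SE 0.46). MYPN, a Z-disc protein, went from 0.349 and 0.380 CPM to 34.2 and 37 CPM (log2 fold change 6.58, SE 0.34). In all 4, both day 10 libraries were at similar levels, and the rule that chose the genes requires them to lie above both day 6 libraries.

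Another 5 of the 12 are plasma protein or liver-type genes, and there the day 10 replicates stood apart. APOA4, an apolipoprotein, was at 0 and 0.380 CPM at day 6 and at 365 and 96.5 CPM at day 10 (log2 fold change 9.88, SE 0.89). AHSG, a plasma glycoprotein, went from 0.305 and 0.143 CPM to 220 and 48.4 CPM (log2 fold change 9.36, SE 0.86). SERPIND1, a thrombin inhibitor, had no reads at day 6 and was at 15.4 and 4.97 CPM at day 10, at least 101-fold higher against a group limit of 3 counts. APOC3 and SPINK1, an apolipoprotein and a trypsin inhibitor, rose by 6.65 and 7.08 on the log2 scale. For each of the 5, replicate 3 was well above replicate 4, although both were above day 6, as the rule requires. The remaining 3 were GRIA1, a glutamate receptor subunit (7.08), and the noncoding HIF1A-AS2 (7.26) and KCNIP4-IT1 (6.61).

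The 12 largest falls by the same rule included genes of progenitors and of the nervous system. BRINP2, a protein of neural cells, was at 74.3 and 57.4 CPM at day 6 and at 0.365 and 0.663 CPM at day 10 (log2 fold change -7.13, SE 0.30, adjusted p = 2.07e-07). CNTNAP4, a cell adhesion protein of the neurexin family, went from 62.3 and 27.9 CPM to 0.313 and 0.331 CPM (log2 fold change -7.12, SE 0.60). EOMES, a T-box factor of early mesoderm and endoderm, went from 11.02 and 11.01 CPM to 0.261 and 0.663 CPM (log2 fold change -4.79, SE 0.26). That no day 10 library reached any day 6 library in these genes follows from the rule that chose them. LFNG, which modifies Notch receptors, fell by 4.72 on the log2 scale, and GABRP, a GABA receptor subunit, fell by 5.19. The others were the peptide NPY (-6.25), RIPPLY3 (-6.14), COL19A1 (-5.16), the channel TRPC4 (-4.93), CSMD3 (-4.67), the deiodinase DIO2 (-4.64) and VRTN (-4.58).

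The cells already held much sarcomere RNA at day 6, and RNA of the thick filament list rose further. In the thick filament and M band list, 9 of 12 tested members rose and none fell at 5% FDR, with 4 past 8-fold, and the median log2 fold change was 1.59. DESeq2 called 8 higher, without MYH6, and 0 lower, and 0 members had an unadjusted p under 0.05 for a fall. Summed over its 15 members, the list was at 40116 and 32360 CPM at day 6 and at 76719 and 69200 CPM at day 10, most of it TTN, the giant spring of the sarcomere. TTN went from 30101 and 24439 CPM to 60231 and 54874 CPM (log2 fold change 1.08, SE 0.14, adjusted p = 0.000103). Per kilobase of transcript, MYH6 was nonetheless above TTN on both days, with levels of 720 against 250 CPM per kb at day 6 and 1205 against 527 at day 10.

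The myosins rose by unequal amounts. MYH6 rose from 4645 and 3903 CPM to 7596 and 6716 CPM (log2 fold change 0.74, SE 0.20, adjusted p = 0.0103), and it did not pass the test without day 6 replicate 2 (0.61), by DESeq2 (0.73) or in 1 fit of all libraries (0.73). MYH7, the slow and ventricular heavy chain, rose from 428 and 339 CPM to 850 and 601 CPM (0.92, SE 0.17, adjusted p = 0.00097). The 2 genes are near-identical over long stretches and could share reads. MYL3, an essential light chain of ventricle and slow muscle, rose from 83.5 and 67.5 CPM to 863 and 688 CPM (3.36, SE 0.19, adjusted p = 1.1e-06). MYBPC3, the cardiac myosin-binding protein C, rose from 223 and 205 CPM to 1151 and 1393 CPM (2.57, SE 0.12, adjusted p = 9.8e-07). The days did not overlap in these genes, the usual case with 2 libraries a day (76.3% of all genes). MYL7 was at 3755 and 2914 CPM at day 10, overlapping day 6 (0.31, SE 0.16, adjusted p = 0.125).

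The thin filament did not move as a group. Of 14 tested members 5 rose and 5 fell (35.7% each, beside background shares of 28.3% and 29.2%), and the median log2 fold change was 0.17. ACTC1, cardiac actin, was at 2044 and 1676 CPM at day 6 and at 1272 and 1275 CPM at day 10 (log2 fold change -0.55, SE 0.13, adjusted p = 0.0043). TPM1, a tropomyosin, was at 4868 and 4129 CPM and then at 3424 and 2578 CPM (-0.58, SE 0.14, adjusted p = 0.00477). Both fell, with no overlap between the days, but ACTC1 did not pass the test in 1 fit of all libraries (-0.56). The troponin I genes TNNI1 and TNNI3 rose. TNNI1, the slow skeletal and fetal form, went from 1282 and 839 CPM to 1607 and 1536 CPM (0.57, SE 0.17, adjusted p = 0.018). It had no call without day 6 replicate 2 (0.28), in 1 fit of all libraries (0.55) or in a fit of the 4 libraries (0.57). TNNI3, the adult cardiac form, went from 13.7 and 12.3 CPM to 38.7 and 33.2 CPM (1.48, SE 0.26, adjusted p = 0.000787). Per kilobase, TNNI1 was still the higher of the pair at day 10, with 257 against 42.6 CPM per kb. ACTA1, skeletal actin, was at 26.4 and 22.1 CPM and then at 36.5 and 26.1 CPM, overlapping ranges (0.38, adjusted p = 0.156). LMOD3, a filament nucleator, was at least 17.9-fold higher at day 10, and its relative LMOD2 fell by 1.40 on the log2 scale.

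At the Z-disc, 21 of 28 tested members rose and 1 fell (2 without day 10 replicate 3), and the median was 1.33. ACTN2, the actinin that crosslinks thin filaments, went from 173 and 170 CPM to 861 and 694 CPM (log2 fold change 2.18, SE 0.17, adjusted p = 6.77e-06). HSPB7, a small heat shock protein of muscle, went from 69.9 and 47.2 CPM to 608 and 790 CPM (3.58, SE 0.23, adjusted p = 2.23e-06). The levels of both were several times higher in either day 10 library than in either day 6 library. SYNPO2 and XIRP2, actin-binding proteins, rose by 3.50 and 3.07, and FHL2, a LIM protein, rose from 27.7 and 20.2 CPM to 189 and 144 CPM (2.81, SE 0.18). The member that fell, ANKRD1, a stretch-responsive ankyrin repeat protein, is named after its value was seen (-2.21, SE 0.22, adjusted p = 2.46e-05).

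**Figure D2:**
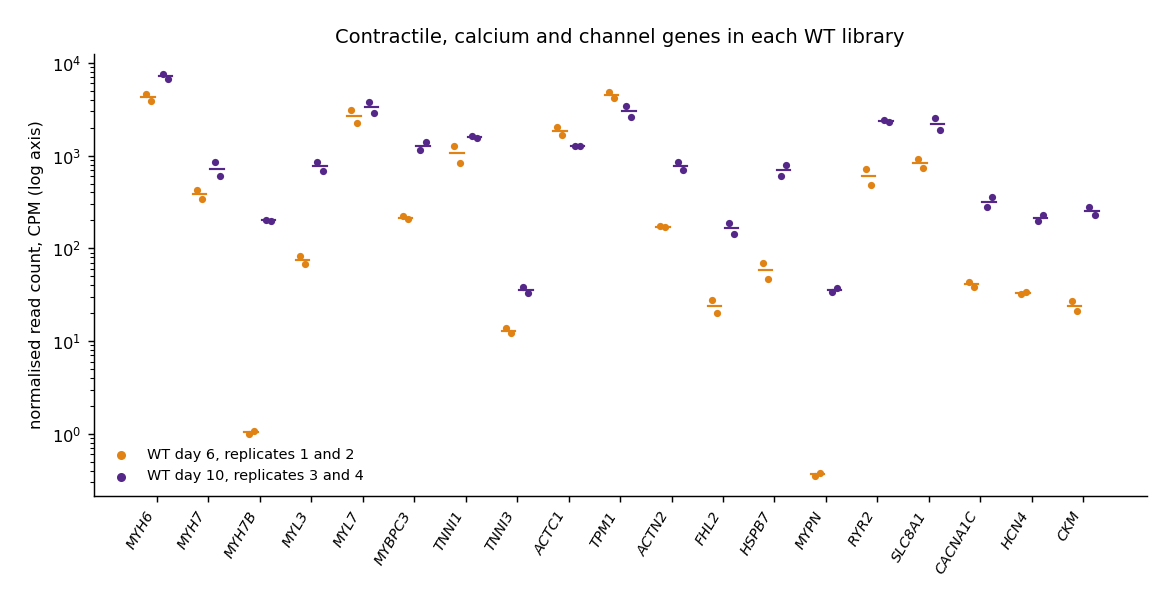
Normalised read counts in CPM (log axis) for 19 genes in the 4 WT libraries. Orange points are day 6 replicates 1 and 2, purple points are day 10 replicates 3 and 4, and bars are their means; MYH7B and MYPN sit at 1.07 CPM or below at day 6 and at 34.2 CPM or above at day 10, MYH6 rises little from a high level, and ACTC1 and TPM1 fall.

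Calcium release and re-uptake genes rose in 11 of 16 tested cases and fell in 2 (median 1.01), with 1 lower without day 10 replicate 4 or either day 6 library. Their summed level went from 3125 and 2642 CPM to 7124 and 6086 CPM. RYR2, the release channel of the sarcoplasmic reticulum, rose from 719 and 482 CPM to 2420 and 2302 CPM (log2 fold change 1.98, SE 0.16, adjusted p = 8.74e-06). SLC8A1, the sodium-calcium exchanger, rose from 928 and 731 CPM to 2518 and 1908 CPM (1.42, SE 0.16, adjusted p = 5.27e-05). In both, the lower day 10 library was well above the higher day 6 library. ASPH, HRC and TMEM38A, which regulate or balance the store, rose by 1.49, 1.44 and 1.97. SLN, a small inhibitor of the calcium pump, was low but rose from 0.261 and 0.475 CPM to 3.91 and 1.10 CPM (2.77, SE 0.68, adjusted p = 0.00691), a call lost without day 10 replicate 3 (1.51) or day 6 replicate 1 (2.45).

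Of the sodium, calcium and pacemaker channel genes, 11 of 15 rose and none fell (median 2.08), with their sum at 233 and 228 CPM at day 6 and 1070 and 1284 CPM at day 10. No member passed the test for a fall by DESeq2 either, and 0 had an unadjusted p under 0.05 in that direction. CACNA1C, the main L-type calcium channel of the heart, rose from 43.4 and 38.5 CPM to 277 and 358 CPM (log2 fold change 2.96, SE 0.17, adjusted p = 1.1e-06). HCN4, the pacemaker channel, rose from 32.2 and 34.1 CPM to 197 and 231 CPM (2.69, SE 0.13, adjusted p = 4.43e-07). Day 10 levels were several times those of day 6 in every library. CACNA1G, a T-type calcium channel, rose from 0.567 and 0.666 CPM to 7.66 and 10.9 CPM (3.86, SE 0.27), and CACNB2, an auxiliary subunit, rose by 2.61. Of 21 potassium channel genes 11 rose and 2 fell (median 1.18; 1 lower without day 10 replicate 4 or either day 6 library), among them KCNQ1, which carries the slow repolarising current (4.30, SE 0.36), ABCC9, a subunit of the ATP-sensitive channel (3.63, SE 0.30), and KCNH7 (2.53, SE 0.13).

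Gap junction and desmosome genes stayed near the background as a list, with 5 of 14 higher and 4 lower (median -0.04). These are 35.7% and 28.6%, against 28.3% and 29.2% of all genes. GJA1, connexin 43, was at 348 and 657 CPM at day 6 and at 90.8 and 62.9 CPM at day 10 (log2 fold change -2.70, SE 0.27, adjusted p = 2.39e-05). GJA3, connexin 46, was at 1.83 and 2.02 CPM and then at 82.3 and 104 CPM (5.58, SE 0.21, adjusted p = 1.67e-07). The first fell in both day 10 libraries and the other rose in both. Per kilobase, GJA1 was above GJA3 on both days, at 24.9 against 17.9 CPM per kb at day 10. CDH2, N-cadherin, rose by 1.00, and CTNNA3, an alpha-catenin of the heart, by 1.43.

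Of 7 natriuretic peptide genes 3 rose and 1 fell, counts that became 5 and 0 without day 10 replicate 4, 4 and 0 without day 6 replicate 2, and 2 and 0 without day 10 replicate 3. CORIN, the protease that activates the atrial peptide, rose from 9.41 and 2.83 CPM to 168 and 78.1 CPM (log2 fold change 4.40, SE 0.51, adjusted p = 6.74e-05). NPPA, the atrial peptide itself, was low and rose from 0.610 and 1.17 CPM to 7.56 and 3.75 CPM (2.65, SE 0.52, adjusted p = 0.0028). NPPB, the B-type peptide, was at 29.3 and 23.6 CPM and then at 53.7 and 24.5 CPM, overlapping ranges (0.58, adjusted p = 0.19). Of 25 tested receptor, PKA and calmodulin genes 15 rose and 6 fell (median 1.06). AKAP6, an anchor of PKA near the nucleus, rose by 3.12 (SE 0.26), THRB, a thyroid hormone receptor, by 2.44 (SE 0.23) and CAMK2B, a calmodulin kinase, by 4.04 (SE 0.72).

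Cardiac transcription factors changed less as a group, with 14 of 40 higher and 8 lower (median 0.07), near the background. TBX5, a T-box activator of the heart, rose from 14.6 and 18.6 CPM to 92.4 and 99.6 CPM (log2 fold change 2.53, SE 0.18, adjusted p = 3.83e-06). TBX20, another heart T-box factor, rose from 267 and 194 CPM to 648 and 739 CPM (1.59, SE 0.16). IRX4, a ventricular homeobox factor, rose from 2.48 and 2.59 CPM to 37.5 and 80.7 CPM (4.52, SE 0.34), and TBX2, a repressor of chamber genes, rose from 51.1 and 52.2 CPM to 230 and 560 CPM (2.93, SE 0.34). The day 10 replicates of IRX4 and TBX2 stood apart, replicate 4 being the higher, but all lay above day 6. NKX2-5 rose from 84.6 and 49.9 CPM to 108 and 173 CPM (1.06, SE 0.26, adjusted p = 0.00614; 0.71 and no call without day 6 replicate 2), while MEF2C, a MADS-box factor, fell from 1117 and 796 CPM to 597 and 452 CPM (-0.86, SE 0.17, adjusted p = 0.00164). ZEB2 was at 97.3 and 92.98 CPM and then at 118 and 108 CPM (0.25, adjusted p = 0.295), and ZNF503, a zinc finger repressor, at 8.76 and 9.22 CPM and then at 5.47 and 10.4 CPM (-0.22, adjusted p = 0.6).

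Energy genes of muscle rose nearly throughout, in 14 of 16 cases with none lower, and the median was 1.58. For falls, DESeq2 called 0 and 0 had an unadjusted p under 0.05. CKM, muscle creatine kinase, rose from 27.0 and 20.9 CPM to 277 and 230 CPM (log2 fold change 3.41, SE 0.17, adjusted p = 2.63e-06). PPARGC1A, a coactivator of mitochondrial genes, rose from 221 and 171 CPM to 513 and 372 CPM (1.18, SE 0.17), and its relative PPARGC1B from 1.83 and 3.16 CPM to 19.5 and 28.8 CPM (3.22, SE 0.28). SLC2A4, the insulin-regulated glucose transporter, rose by 2.44. Like 76.3% of all genes, these did not overlap between the days.

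Glycolysis rose in 21 of 24 genes and fell in 3 (median 1.18), and its summed level went from 10790 and 9809 CPM to 18005 and 15441 CPM. LDHA, which makes lactate, rose from 105 and 100 CPM to 1162 and 973 CPM (log2 fold change 3.38, SE 0.12, adjusted p = 1.67e-07). HK2, a hexokinase, rose from 13.6 and 16.8 CPM to 155 and 99.6 CPM (3.07, SE 0.21), and PFKFB4, which sets the level of a glycolytic activator, from 19.7 and 16.4 CPM to 189 and 176 CPM (3.35, SE 0.13). These 3 were several times higher in either day 10 library than in either day 6 library. SLC2A1, a glucose transporter, rose by 2.42, GAPDH by 1.11 and PDK1, which restrains entry of pyruvate into mitochondria, by 0.67 (0.65 with no call in 1 fit of all libraries). The genes that fell, named after their values were seen, were LDHB (-0.67, and -0.63 with no call without day 6 replicate 1), the transporter SLC2A3 (-1.28) and the lactate carrier SLC16A1 (-1.75).

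Fatty acid oxidation showed 11 of 23 genes higher and 3 lower (median 0.32). Without day 10 replicate 3 or 4 or day 6 replicate 1 or 2, in that order, 5, 1, 0 and 1 were lower, and the medians lay between 0.18 and 0.52. CPT1A, the gate of fatty acid entry into mitochondria, rose from 7.15 and 6.16 CPM to 66.2 and 56.4 CPM (log2 fold change 3.22, SE 0.14, adjusted p = 3.07e-07), and PDK4 rose by 2.44 (SE 0.42). The respiratory chain was close to level, with 5 of 43 genes higher and 8 lower (median -0.14), both below the background shares. Without day 10 replicate 3 that count was 5 higher and 20 lower, without replicate 4 it was 6 and 2, without day 6 replicate 1 it was 6 and 1, and without replicate 2 it was 2 and 11. SDHA, a subunit of complex II, rose from 77.7 and 68.6 CPM to 162 and 135 CPM (1.03, SE 0.12), whereas SDHD of the same complex fell from 91.1 and 74.1 CPM to 58.9 and 55.5 CPM (-0.53, SE 0.13). ATP5F1B, a subunit of the ATP synthase, was at 1619 and 1346 CPM and then at 1652 and 1254 CPM, which overlap (-0.03, adjusted p = 0.877). Of 22 sterol and fatty acid synthesis genes 5 rose and 8 fell (median -0.14), among the latter SC5D, an enzyme of cholesterol synthesis (-1.06, SE 0.12), but without day 10 replicate 4 the counts were 8 higher and 6 lower.

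**Figure D3:**
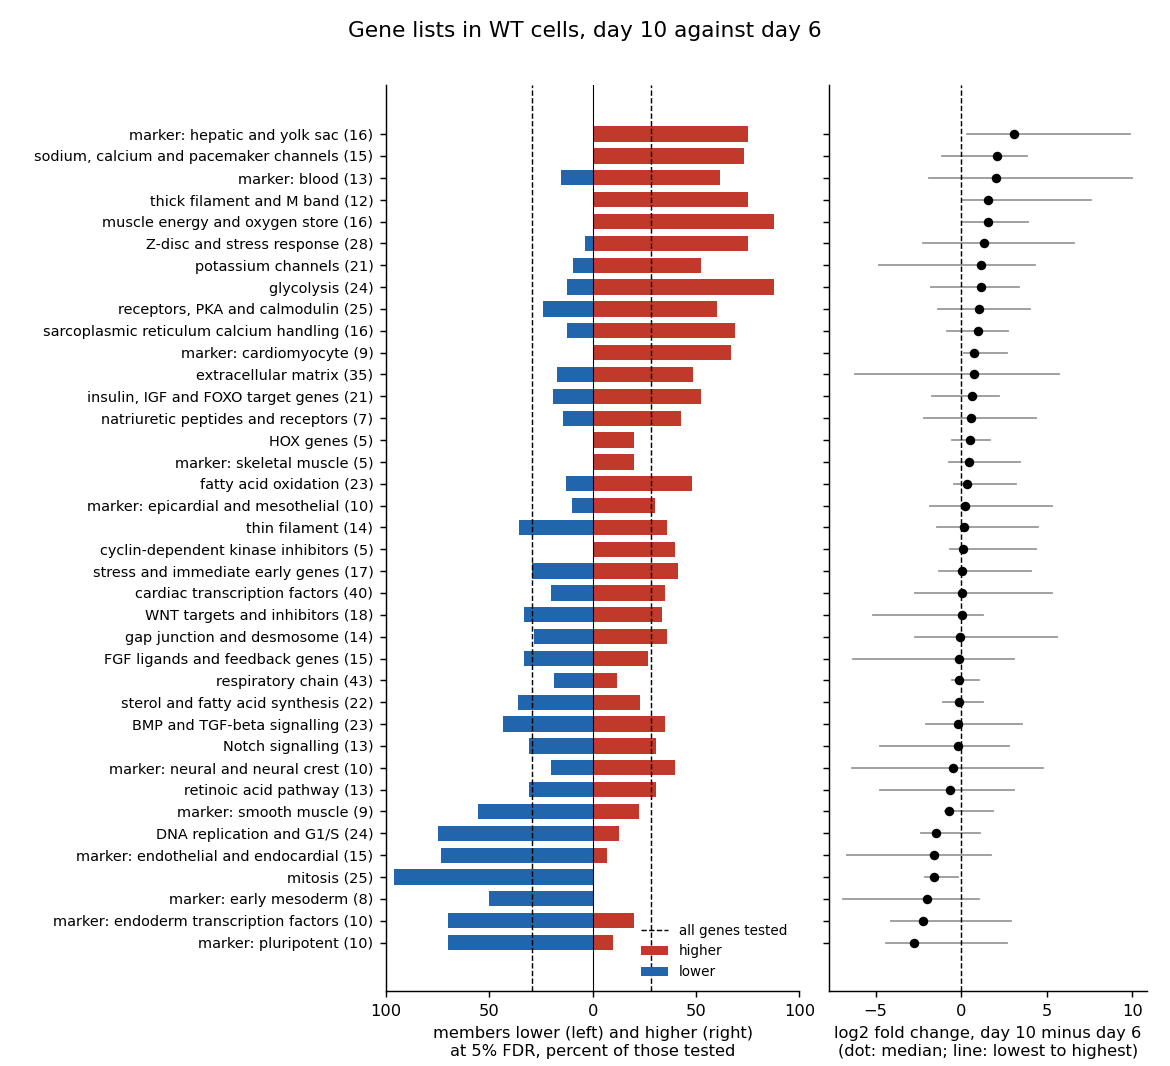
Left, the percent of the tested members of each list that were higher (red) or lower (blue) at day 10 at 5% FDR, with dashed lines at the shares over all genes, 28.3% and 29.2%. Right, the median log2 fold change (dot) and the range of the members (line), with the number of members tested in parentheses; mitosis has 24 of 25 members lower and glycolysis 21 of 24 higher.

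Mitosis genes fell almost without exception, 24 of 25, with none higher, and the median was -1.60. For a rise, DESeq2 called 0 and 0 had an unadjusted p under 0.05. Their summed level was 3547 and 3616 CPM at day 6 and 1404 and 1092 CPM at day 10. TOP2A, the topoisomerase of dividing cells, fell from 670 and 664 CPM to 231 and 173 CPM (log2 fold change -1.72, SE 0.13, adjusted p = 5.31e-06). CCNB2, a mitotic cyclin, fell from 62.2 and 59.3 CPM to 15.8 and 11.3 CPM (-2.13, SE 0.14, adjusted p = 2.83e-06), and BIRC5, survivin, from 72.6 and 63.0 CPM to 18.4 and 14.5 CPM (-2.02, SE 0.14). CDK1, whose promoter is printed above and which was outside the naming rule, fell from 144 and 136 CPM to 50.9 and 27.2 CPM (-1.81, SE 0.22, adjusted p = 7.39e-05). In each of these the higher day 10 library was well below the lower day 6 library. The member that did not pass, named after its value was seen, was MKI67, the Ki-67 antigen, at 104 and 126 CPM and then at 106 and 94.1 CPM (-0.20, SE 0.12, adjusted p = 0.19). In bulk RNA, fewer cells of a kind and less RNA per cell cannot be told apart.

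DNA replication and G1/S genes fell in 18 of 24 cases and rose in 3 (median -1.47). CDC6, which loads the replicative helicase, fell from 55.2 and 51.6 CPM to 11.4 and 9.50 CPM (log2 fold change -2.33, SE 0.12, adjusted p = 8.02e-07), and MCM4, a helicase subunit, from 231 and 225 CPM to 97.2 and 79.6 CPM (-1.36, SE 0.11). CCND2, a D-type cyclin, went the other way, from 419 and 425 CPM to 509 and 479 CPM (0.23, SE 0.09, adjusted p = 0.0469), a call lost without day 6 replicate 1, day 6 replicate 2 or day 10 replicate 3 (0.17 to 0.22) and in several other settings, such as the replicate block (0.23). Of 5 tested inhibitors of cyclin-dependent kinases 2 rose. CDKN1A, p21, rose from 2.35 and 2.00 CPM to 48.1 and 39.9 CPM (4.35, SE 0.21, adjusted p = 4.56e-07), and CDKN1B, p27, was at 87.8 and 79.5 CPM and then at 89.5 and 82.5 CPM, overlapping (0.04, adjusted p = 0.762).

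**Figure D4:**
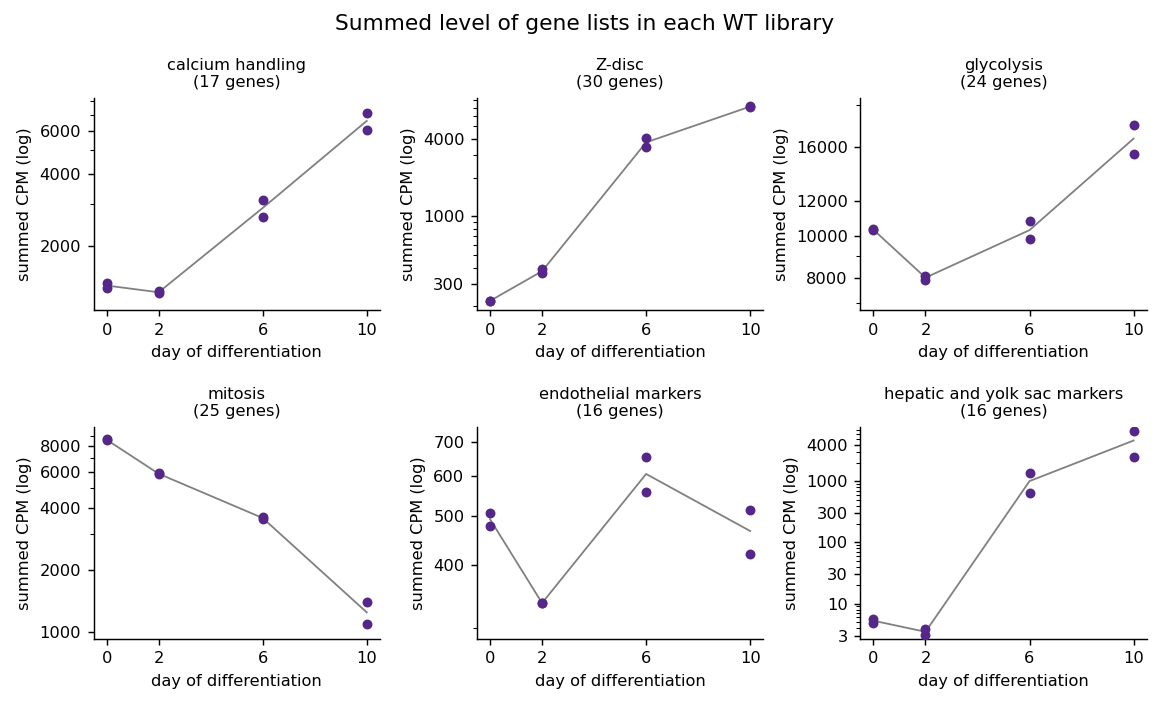
Summed level (CPM, log axis, 1 point per library) of 6 gene lists in WT cells at days 0, 2, 6 and 10, with a line through the means. Calcium handling, Z-disc and glycolysis sums are highest at day 10, mitosis sums fall from day 0 on to 1404 and 1092 CPM, and the day 10 replicates of the hepatic and yolk sac sum stand far apart at 6764 and 2530 CPM.

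Signalling lists stayed near the background, and their small counts moved with single libraries: WNT to 3 and 3 without day 6 replicate 2, Notch to 2 and 3 without day 6 replicate 1, and retinoic acid to 2 and 5 or 2 and 4 without day 6 replicate 1 or 2. Of 18 tested WNT genes 6 rose and 6 fell (median 0.06): LEF1, a WNT effector, rose from 56.0 and 54.5 CPM to 118 and 148 CPM (log2 fold change 1.26, SE 0.14), and LGR5, a WNT amplifier, fell from 5.05 and 5.25 CPM to 0.208 and 0 CPM (-5.17, SE 0.68). Of these lists, BMP and TGF-beta lay farthest from the background by the shares that rose and fell. By the median, the retinoic acid list lay farthest (-0.68, against -0.009 over all genes). In the BMP and TGF-beta list 8 of 23 rose (34.8%) and 10 fell (43.5%), against 28.3% and 29.2% of all genes (median -0.18). TGFB2, a ligand, rose from 505 and 424 CPM to 1077 and 1169 CPM (1.27, SE 0.15), and ID1, a target of BMP, fell from 189 and 166 CPM to 43.9 and 40.5 CPM (-2.07, SE 0.11). The days of these 4 genes did not overlap, as for 76.3% of all genes. Of 13 Notch genes 4 rose and 4 fell (median -0.18), of 15 FGF genes 4 rose and 5 fell (median -0.11), and of 13 tested retinoic acid genes 4 rose and 4 fell (median -0.68). DUSP6, which damps FGF signals, fell from 633 and 435 CPM to 93.3 and 110 CPM (-2.40, SE 0.17), and STRA6, a retinol transporter, rose from 7.23 and 5.04 CPM to 35.3 and 70.4 CPM (3.11, SE 0.33).

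In the insulin, IGF and FOXO list, of interest since insulin came between the days, 11 of 21 tested members rose and 4 fell (median 0.63), the falls numbering 2 and 1 without day 6 replicate 1 or 2. IGF2, a growth factor, rose from 133 and 167 CPM to 522 and 475 CPM (log2 fold change 1.73, SE 0.13, adjusted p = 5.76e-06). TXNIP, a glucose-responsive brake on glucose uptake, rose from 149 and 158 CPM to 416 and 486 CPM (1.56, SE 0.13). BCL6 and PIK3IP1, both raised by FOXO factors in other cells, rose by 2.21 and 1.48, and SESN3, another such gene, fell by 0.25, a call lost without either day 6 library, with the replicate block (-0.25) and in 1 fit of all libraries (-0.27). The 5 genes did not overlap between the days, as 76.3% of all genes did not. Stress and immediate early genes were mixed (7 of 17 higher, 5 lower, median 0.08; 4 higher without day 10 replicate 4 or day 6 replicate 2), with EGR1 rising from 2.18 and 2.28 CPM to 20.6 and 56.5 CPM (4.09, SE 0.44), and 1 of 5 tested HOX genes rose, HOXB3 (1.69, SE 0.40), with 2 higher without day 10 replicate 4.

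Extracellular matrix genes rose in 17 of 35 cases and fell in 6 (median 0.73). LAMA2, the laminin chain around muscle fibres, rose from 3.66 and 4.40 CPM to 240 and 183 CPM (log2 fold change 5.70, SE 0.18, adjusted p = 1.21e-07), and LAMA4, of vessel and heart basement membrane, from 3.35 and 2.33 CPM to 107 and 96.8 CPM (5.19, SE 0.20). FBN2, a microfibril protein, rose from 523 and 473 CPM to 2554 and 1992 CPM (2.19, SE 0.13). In these 3 the days were far apart and the replicates close. HAPLN1, which links hyaluronan to proteoglycans, fell from 1112 and 1083 CPM to 165 and 158 CPM (-2.77, SE 0.19). FN1 and VCAN, the most abundant members, did not pass the test (0.19 each, adjusted p = 0.107 and 0.352). Without day 10 replicate 4 the list had 24 members higher and 5 lower.

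Among cardiomyocyte markers 6 of 9 rose and none fell (median 0.74; for falls, 0 by DESeq2 and 0 at an unadjusted p under 0.05), and their sum went from 11903 and 9242 CPM to 19233 and 16301 CPM. Without day 6 replicate 2 the count was 4. Pluripotency markers fell in 7 of 10 cases (median -2.78), with their sum at 1341 and 1367 CPM and then at 210 and 198 CPM. LIN28A, an RNA-binding protein of early cells that had been at a mean of 1389 CPM at day 2, went from 1019 and 1020 CPM to 112 and 89.1 CPM (log2 fold change -3.34, SE 0.12, adjusted p = 1.67e-07). L1TD1, another RNA-binding protein of stem cells, went from 98.8 and 96.5 CPM to 4.79 and 6.18 CPM (-4.19, SE 0.13). The replicates were close and the days wide apart. NANOG was at 0.218 and 0.285 CPM and rose to 1.61 and 1.88 CPM (2.69, SE 0.27, adjusted p = 2.81e-05), far below its mean of 47.0 CPM at day 2, and it has a near-identical processed copy that could share reads. PDGFRA, a receptor of mesoderm, fell from 943 and 810 CPM to 236 and 228 CPM (-1.92, SE 0.10), 1 of 4 falls among 8 tested early mesoderm genes, where 0 rose (1 and 2 without day 10 replicate 3 or day 6 replicate 1; 0 by DESeq2 and 0 at an unadjusted p under 0.05).

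Among markers of other cell types, the endothelial and smooth muscle lists fell more often than all genes did (73.3% and 55.6% against 29.2%). Falls in the epicardial, neural and skeletal muscle lists were below that share (10%, 20% and 0%). Their rises were 30%, 40% and 20%, against 28.3% of all genes. Endothelial markers fell in 11 of 15 tested cases and rose in 1 (median -1.58; 2 higher without day 10 replicate 3 or day 6 replicate 1): CDH5, VE-cadherin, went from 10.6 and 16.2 CPM to 1.98 and 0.663 CPM (log2 fold change -3.20, SE 0.44, adjusted p = 0.000269), and PECAM1, CD31, from 4.01 and 5.59 CPM to 0.834 and 0.111 CPM (-3.09, SE 0.58). Both were at or below 2 CPM in each day 10 library. KDR, a VEGF receptor that progenitors share, was at 409 and 460 CPM and then at 415 and 345 CPM, which overlap (-0.19, adjusted p = 0.177). Smooth muscle markers fell in 5 of 9 cases and rose in 2 (median -0.73; 1 higher without day 10 replicate 3 and 0 without day 6 replicate 1), with ACTA2, smooth muscle actin, at 554 and 364 CPM and then at 529 and 395 CPM (0.01, adjusted p = 0.974). Of 10 tested epicardial markers 3 rose and 1 fell: TBX18, a T-box factor of epicardium and sinus node, rose from 0.610 and 0.428 CPM to 29.2 and 10.2 CPM (5.31, SE 0.53, adjusted p = 2.64e-05), and KRT19, a keratin, fell by 1.82. Without day 6 replicate 1 only 1 epicardial marker was higher. Of 10 tested neural markers 4 rose and 2 fell (median -0.47), and of 5 tested skeletal muscle markers 1 rose, CKM, and 1 fell only without day 6 replicate 2.

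Hepatic and yolk sac genes were the list with the highest median, 3.10, with 12 of 16 higher, 8 of them past 8-fold, and none lower (for falls, 0 by DESeq2 and 0 at an unadjusted p under 0.05). Their sum was 637 and 1381 CPM at day 6 and 6764 and 2530 CPM at day 10, and it thus differed between replicates of 1 day by more than most lists. AFP, alpha-fetoprotein, was at 95.4 and 186 CPM at day 6 and at 2971 and 1235 CPM at day 10 (log2 fold change 3.90, SE 0.44, adjusted p = 5.7e-05). APOB, an apolipoprotein, was at 190 and 420 CPM and then at 1071 and 419 CPM, so that its groups overlapped (1.29, SE 0.42, adjusted p = 0.0247), and the call was lost without day 10 replicate 3 (0.44) or day 6 replicate 1 (0.82) and by DESeq2 (1.27). SERPINA1, an antitrypsin, rose from 2.31 and 4.28 CPM to 385 and 137 CPM (6.25, SE 0.49). Without day 10 replicate 3 the list had 10 members higher, and without replicate 4 it had 15.

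Endoderm transcription factors went the other way in the same libraries, with 7 of 10 lower and 2 higher (median -2.26; 1 higher without day 10 replicate 3 or either day 6 library). HHEX, a homeobox factor of the liver bud and of endothelium, fell from 53.9 and 70.4 CPM to 4.48 and 2.32 CPM (log2 fold change -4.10, SE 0.26, adjusted p = 1.9e-06). HNF4A, a nuclear receptor of liver, fell from 36.8 and 84.7 CPM to 18.7 and 8.62 CPM (-2.11, SE 0.42, adjusted p = 0.00216), and FOXA2 from 9.06 and 23.4 CPM to 2.71 and 1.77 CPM (-2.80, SE 0.47). At day 6, replicate 2 was the higher in all 3, as it was for AFP and APOB. PROX1, which the heart also expresses, rose from 62.1 and 51.6 CPM to 186 and 188 CPM (1.72, SE 0.12). Blood genes rose in 8 of 13 tested cases and fell in 2, at low levels that were again higher in replicate 3: their sum was 16.2 and 27.3 CPM at day 6 and 113 and 24.1 CPM at day 10, and without replicate 3 the count was 5. HBA2 had no reads at day 6 and was at 7.09 and 1.88 CPM at day 10, at least 44.4-fold higher, and its near-identical copy HBA1 at least 40.8-fold. The part of such cells in any other result was not tested.

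The make-up of the RNA shifted too, as seen in genes chosen after their values were known. MALAT1, a nuclear noncoding RNA, rose from 17193 and 19343 CPM to 66236 and 55534 CPM (log2 fold change 1.74, SE 0.15, adjusted p = 9.65e-06). NEAT1, another nuclear RNA, rose from 35.5 and 52.2 CPM to 199 and 144 CPM (1.96, SE 0.20), and SRRM2, a long message for a splicing protein, from 204 and 255 CPM to 1118 and 2029 CPM (2.78, SE 0.24). EEF1A1, a translation factor, fell from 4023 and 3696 CPM to 2325 and 1852 CPM (-0.89, SE 0.12). Of 80 ribosomal protein genes 76 fell and 0 rose at 5% FDR (median -1.02), although processed copies could share their reads. Their TMM-scaled CPM, in percent of the nominal total of a library, went from 3.49% and 3.24% to 1.86% and 1.52%. These percents are not exact shares of the reads. DESeq2 called 0 of the 80 genes higher, and 0 had an unadjusted p under 0.05 for a rise.

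Change also went with transcript length. Over 16454 genes in 6 bins of length, the median log2 fold change was -0.24 for transcripts of 110 to 1512 bases and rose with each bin to 0.17 for those of 6095 bases and more. The share of genes that rose was 19.3% in the first bin and 39.2% in the last. Taking the median of its length bin from each gene, the medians became 1.45 for the thick filament, 1.49 for the Z-disc, 1.24 for glycolysis, -1.56 for mitosis and 0.05 for the respiratory chain, whose sign thus depends on it. The part of RNA quality or of library preparation in this trend was not tested.

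Whether the interval ran alike in the other lines was asked by testing the difference between changes over 12 libraries and 17447 genes. Against NKX2-5 shRNA cells, 398 genes (2.28%) changed more upward in the knockdown and 110 (0.630%) more downward at 8-fold and 1% FDR, and at 5% FDR these were 2534 (14.5%) and 1826 (10.5%). Against ZEB2 shRNA cells the counts were 50 (0.287%) and 12 (0.0688%), and at 5% FDR 666 (3.82%) and 432 (2.48%). Leaving out 1 library moved the first total of 508 to 297 or 322 without NKX2-5 shRNA day 6 replicate 1 or 2, 328 without WT day 6 replicate 2, 303 without WT day 10 replicate 4 and 861 without NKX2-5 shRNA day 10 replicate 2. The ZEB2 total of 62 fell to 0 and 4 without ZEB2 shRNA day 6 replicate 1 or 2, to 4 without either ZEB2 day 10 library, to 3 without WT day 6 replicate 2 and to 29 and 7 without WT day 10 replicate 3 or 4, so it rests on single libraries. The comparisons share the WT libraries. MYH6 was at 0.652 and 0.453 CPM at day 6 in the NKX2-5 line, so that a like fold there starts from another level.

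Mitosis genes differed in most cases: 23 of 25 members differed upward in the NKX2-5 line and 15 of 25 in the ZEB2 line, with none downward in either. Over all genes 14.5% and 3.82% differed upward at the same 5% FDR. List counts of the lines were not computed without single libraries, so those of the ZEB2 line have the limit given above for its total. The medians of the changes in this fit were -1.60 in WT, 0.34 in the NKX2-5 line and -0.44 in the ZEB2 line. CCNB2 went from 11.8 and 13.3 CPM to 11.7 and 18.1 CPM in NKX2-5 shRNA cells and from 57.9 and 59.7 CPM to 40.9 and 46.0 CPM in ZEB2 shRNA cells. In the first line the days overlapped, and in the other both day 10 libraries were lower (differences of CCNB2 from the WT change 2.40, adjusted p = 0.000661, and 1.71, adjusted p = 0.014). DNA replication genes differed upward in 20 of 24 cases in the NKX2-5 line and in 3 of 24 in the ZEB2 line. Endothelial markers differed upward in 13 of 16 and in 5 of 16 cases, and smooth muscle markers in 7 of 9 and 2 of 9, with medians of the changes of 2.89 in the NKX2-5 line and 0.62 in the ZEB2 line against -0.73 in WT.

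Some WT rises were smaller in, or missing from, a knockdown line. VCAM1, an adhesion molecule on cardiac progenitors and myocytes, rose in WT from 31.6 and 40.2 CPM to 1075 and 1077 CPM (log2 fold change 4.90, SE 0.15, adjusted p = 3.34e-07). In NKX2-5 shRNA cells VCAM1 was at 53.9 and 53.1 CPM and then at 33.6 and 12.7 CPM (difference -6.11, adjusted p = 9.01e-05), and in ZEB2 shRNA cells at 10.6 and 11.1 CPM and then at 109 and 66.8 CPM (difference -1.88, adjusted p = 0.0544). It thus stood above its day 6 level in both ZEB2 libraries and below it in both NKX2-5 libraries. SORCS3, a sorting receptor, rose in WT from 0.610 and 0.951 CPM to 83.0 and 71.7 CPM and stayed at or below 5.54 CPM in both knockdown lines. IGSF9B, an adhesion protein, rose from 1.44 and 1.28 CPM to 20.3 and 26.3 CPM in WT and was at 2.33 and 1.69 CPM at day 10 in the ZEB2 line. LAMA2 rose less in both lines, with differences of -4.32 in the NKX2-5 line (adjusted p = 0.000514) and -2.97 in the ZEB2 line (adjusted p = 0.0155). FBN2, which rose in WT, fell in the NKX2-5 line (log2 fold change -0.71, adjusted p = 0.00692) and did not pass the test in the ZEB2 line (-0.05, adjusted p = 0.841), with differences of -2.90 and -2.24 from WT (adjusted p = 9.01e-05 and 0.00235).

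Other changes of WT cells did not pass the test of a difference. For CDKN1A the difference was -1.17 in the NKX2-5 line and -0.25 in the ZEB2 line (adjusted p = 0.0631 and 0.791), and for MYH7B, at lower levels in both lines, -2.05 and -1.13 (adjusted p = 0.371 and 0.505). A p that misses the threshold does not show that the changes were alike. In the glycolysis list 12 of 24 members differed downward and 2 upward in the NKX2-5 line, LDHA among the former (difference -1.93, adjusted p = 0.0293), and 0 downward and 1 upward in the ZEB2 line. Over all genes 10.5% differed downward and 14.5% upward in the NKX2-5 line, and 2.48% and 3.82% in the ZEB2 line. The hepatic medians were above 0 in all 3 lines, at 3.12 in WT, 3.95 in the NKX2-5 line and 4.73 in the ZEB2 line, and 2 of 16 differed upward in each knockdown line. AFP was at 31144 and 20192 CPM at day 10 in the NKX2-5 line and at 4795 and 5877 CPM in the ZEB2 line, both above WT.

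**Figure D5:**
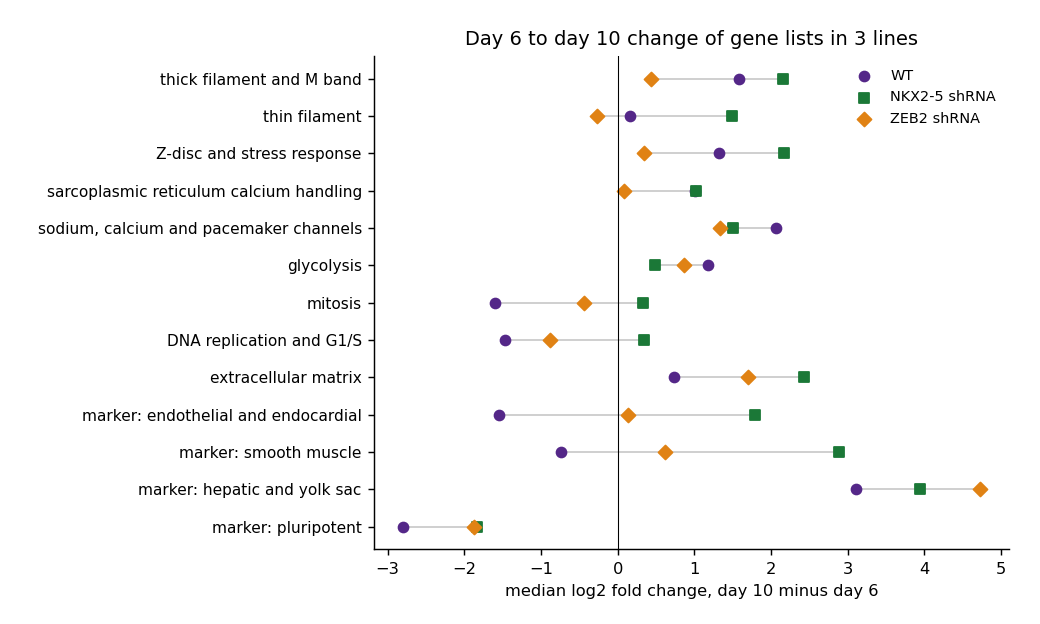
Median log2 fold change from day 6 to day 10 of the tested members of 13 gene lists in WT (circles), NKX2-5 shRNA (squares) and ZEB2 shRNA (diamonds) cells, 2 libraries a day each. The mitosis medians are -1.60, 0.34 and -0.44, and the endothelial medians are -1.55, 1.79 and 0.14. Over all genes the medians are 0.005, 0.14 and 0.06, so the endothelial median of the ZEB2 line lies near that of all genes.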

How the data were processed

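RNA of H1 cells was sequenced as stranded total RNA libraries. The authors aligned paired-end reads to GRCh37 with TopHat2 2.0.14 (Bowtie2 2.2.1.0, SAMtools 0.1.19.0), kept 1 best hit a read and counted reads per RefSeq gene region with RSeQC, and the deposited values are these raw counts. Whether strand was used in counting is not given in the sources used here.

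Of 34 library columns, 30 were used. The other 4, among them WT day 10 replicates 1 and 2, do not follow the row identifiers. The Spearman correlation with WT day 10 replicate 3, as the median over 41 blocks of rows, was 0.0128 and 0.00792 for those 2. It was 0.984 for replicate 4. Of 41627 RefSeq accessions, 40281 (96.8%, with 97.1% of counts) matched a symbol, which gave 23185 genes, and 1077 rows without an accession were left out. Each gene is its row with the largest total.

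The main fit was edgeR 4.0.16 in R 4.3.3 (filterByExpr, TMM, quasi-likelihood test) on 8 WT libraries of days 0, 2, 6 and 10, with the contrast of day 10 and day 6. The lines were compared in a fit of 12 libraries with the difference of changes as the contrast. Calls used 8-fold with 1% FDR, or 5% FDR at any fold. Where every library of a day had 3 counts or fewer, the fold is a lower bound computed against 3 counts over that day. Total counts, from 9189588 to 42821020 in the 4 libraries, set the precision at low levels, and such limits cover counting error only. Replicates differed beyond sampling noise, so none was merged. The scripts were tested on simulated data.

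Genes are named by rule: the 12 largest rises and 12 largest falls among called genes of at least 10 CPM without overlap, up to 5 changed members and the 2 most counted members of each list, 11 genes of the study and the 5 largest differences each way in each line, of which those the text needs are given. Some genes that the rule names are not reported here. Members, 38 lists and tests were chosen with earlier results of these data known. Gene positions are from the GENCODE annotation of GRCh37, which also gave lengths for levels per kb, and sequences are from RefSeq on GRCh38.p14. Alternatives were other normalizations, no filter, DESeq2 1.42.0, summed rows, other call rules, other samples in the fit, a replicate block and leaving out each library.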

Additional observations from a re-analysis of the deposited data

Results flagged for a closer look

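Each result here is a change from day 6 to day 10 that differed between a knockdown line and WT cells by edgeR's test of the difference (8-fold and 1% FDR), given as the log2 change in the knockdown line minus that in WT cells. In the NKX2-5 shRNA line 508 genes differed. The upward differences named are ATP12A (10.40), CNTNAP4 (9.52), COL24A1 (9.05), SLITRK6 (8.74) and HPSE2 (8.70), and the downward ones named are GADL1 (-7.01), SORCS3 (-6.42), SLC24A2 (-6.13) and VCAM1 (-6.11). HPSE2 itself was at 20.6 and 15.2 CPM at day 6 and at 17.8 and 23.3 CPM at day 10 in WT cells, and it was at 0 in both day 6 libraries of the NKX2-5 line, so that its fitted difference depends on the prior count and is no bound. The same holds for ATP12A, and for TFAP2A in the ZEB2 line, which had at most 2 reads in each WT library of day 10. SLITRK6 was at 68.0 and 1.54 CPM in the day 10 replicates of the NKX2-5 line, which thus stand far apart.

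In the ZEB2 shRNA line 62 genes differed, a count that leaving out single libraries takes to between 0 and 58. The upward differences named are TFAP2A (7.81), GABRP (6.33), COL12A1 (6.32), VTCN1 (5.64) and COL6A3 (5.46), and the downward ones LEFTY2 (-8.50), MYO16 (-4.42), SORCS3 (-4.41), CDKN2B (-3.94) and IGSF9B (-3.76). GABRP fell in WT cells and was at 281 and 338 CPM at day 6 and at 727 and 648 CPM at day 10 in the ZEB2 line. LEFTY2 was at 28.0 and 25.7 CPM at day 6 and at 1.25 and 0.422 CPM at day 10 in that line. No group here has more than 2 libraries, so none was searched for single libraries that stand apart.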

How the results depend on the processing

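The 678 genes called between the days became 512 to 666 when 1 library was left out and 601 to 731 under other normalizations, filters, fits, DESeq2 and the replicate block (632). With a 4-fold threshold they were 1571, and at 5% FDR with no fold threshold 9897. The 508 genes of the NKX2-5 comparison became 972 and 4360 under those 2 call rules, 379 with the replicate block and 297 to 861 without 1 library. The 62 genes of the ZEB2 comparison became 110 and 1098 under the call rules, 11 with the replicate block, 190 by DESeq2, 218 in 1 fit of all libraries and 0 to 58 without 1 library. The cause was not tested. Among WT days 0, 2 and 6, the correlations of same-numbered deviations lay between -0.0063 and 0.0079, so the numbers showed no pairing there. Pairing by number was not tested in the knockdown lines, and WT day 6 and day 10 share no number. Among genes named for the lines, the WT calls of COL6A3 (1.46 and 0.76), GADL1 (1.21 and 1.52) and SLITRK6 (-1.23, -2.64 and -1.42) were lost without single libraries, as was that of MIR367 (-4.77 and -6.50). With 2 libraries a day, and 1 when a library is left out (then assumed to vary like the other groups), small changes and low counts are the least certain. Centring on length, chosen after seeing the data, turned the respiratory chain median from -0.14 to 0.05.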
